A study of Mus musculus with 6 samples.

Results

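The 8 genes of the vascular endothelial growth factor (VEGF) system described here are the ligand genes Vegfa, Vegfb, Vegfc and Pgf, the receptor kinase genes Flt1 and Kdr, and the co-receptor genes Nrp1 and Nrp2. They are 8 of the 23107 genes in the deposited count table, and 7 of them were among the 12950 genes with enough counts to be tested. They were taken as a family by name, with their counts-per-million (CPM) values in the comparison of tumour genotypes already known, so their differences between groups are given as a description and carry no test. The RNA came from CD11b+ Gr-1+ myeloid cells sorted out of mouse tumours, described in the series title as gliomas. There were 3 libraries labelled Wild type IDH1 (wtIDH1) and 3 labelled Mutant IDH1 (mIDH1), all on a C57BL/6 background. IDH1 is the cytosolic isocitrate dehydrogenase. The mutation carried, other alleles of the tumours, the age of the mice, the time of collection and whether cells of several mice were pooled are not given in the labels. Nor is it stated whether the replicates came from separate mice, so the spread between them may be partly technical.

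VEGF ligands are secreted, disulfide-linked growth factors that bind receptor tyrosine kinases on endothelial cells and on some myeloid cells. VEGF-A acts mainly through VEGFR2, the product of Kdr. VEGFR1, the product of Flt1, binds VEGF-A, VEGF-B and placental growth factor, and is known on monocytes and macrophages, where it takes part in migration. Neuropilins have a short intracellular part without kinase activity. They bind VEGF isoforms and class 3 semaphorins, the latter together with plexins. In tumours, macrophages and monocytes are a known source of VEGF-A, and the Vegfa gene is induced by hypoxia-inducible factors (HIF).

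Library totals ranged from 19728205 to 35093265 counts, and a count of 0 allows up to 3 counts, or 0.0861 to 0.151 CPM depending on the library (counting error only). Itgam, the gene of CD11b, lay between 1778 and 2222 CPM. Ly6c2, which encodes an antigen bound by Gr-1 antibodies, was lower in mIDH1 without overlap, at 33.7 to 54.3 CPM against 120 to 214 CPM (log2 fold change -1.76, edgeR adjusted p = 0.0018). Ly6g was not found under that symbol in the deposited counts. Of the macrophage markers, 13 genes were measured and none was at 0 in all libraries. Their summed level was 6120 to 6971 CPM in wtIDH1 and 8161 to 16424 CPM in mIDH1, with mIDH1 replicate 3 at the top of that range. The 13 neutrophil markers summed to 337 to 417 CPM in wtIDH1 and 448 to 510 CPM in mIDH1. Of 10 tested, Cxcr2, Mmp8 and Lcn2 passed edgeR's test as higher and Csf3r as lower. Without wtIDH1 replicate 2 or mIDH1 replicate 2 Cxcr2 did not pass, and Csf3r did not without any 1 wtIDH1 library. For 10 T and NK cell markers the sum was 309 to 496 CPM in wtIDH1 and 395 to 753 CPM in mIDH1. For 12 glioma and neural markers it was 13.8 to 18.1 and 18.7 to 25.7 CPM. Of these, Cd4 and Sox2 passed as higher with all libraries and did not without any 1 wtIDH1 library. The marker genes named here were chosen after their values were seen. The part of these other cells in the VEGF values was not tested. In bulk RNA, fewer cells of a type and less RNA per cell cannot be told apart.

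In mIDH1 libraries Vegfa was 6.83-fold lower, Flt1 2.48-fold lower and Kdr 2.11-fold lower by the ratio of group means, while Nrp1 was 1.81-fold and Nrp2 1.76-fold higher. For these 5 genes the 3 mIDH1 values lay all below or all above the 3 wtIDH1 values. Vegfb and Pgf overlapped between the groups, and Vegfc was near the detection limit. Of all tested genes, 28.9% had groups that did not overlap in CPM, 14% higher and 14.9% lower in mIDH1, against 2 higher and 3 lower among the 7 tested members. In edgeR's quasi-likelihood fit across all genes, 3 of the 7 passed an adjusted p of 0.05, against 8.17% of the genes tested (2.78% higher and 5.39% lower in mIDH1). They were Vegfa on the lower side, and Nrp1 and Nrp2 on the higher side. Nothing is read from these counts, because the genes were chosen with this comparison known. Vegfa alone passed when any 1 of the wtIDH1 libraries was left out. Without mIDH1 replicate 1 the 3 genes were Vegfa, Flt1 and Nrp1.

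**Figure D1:**
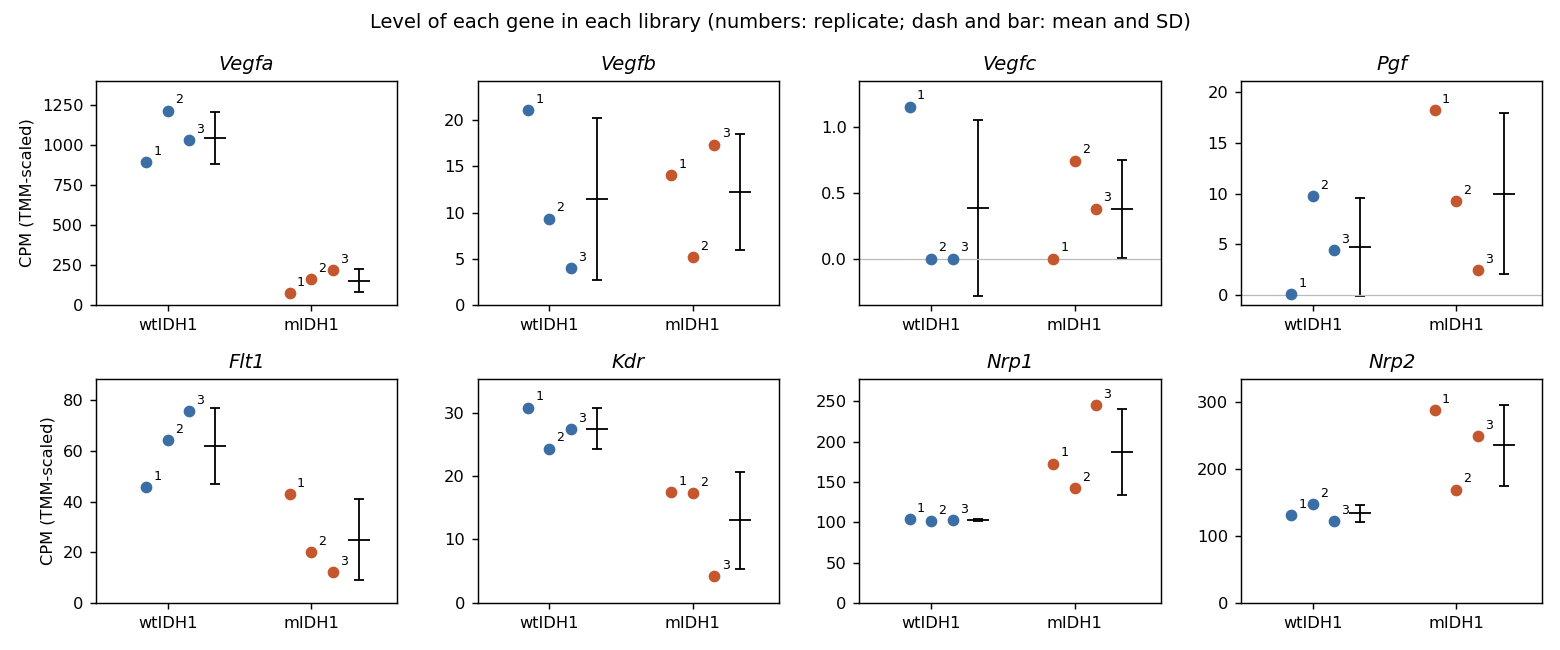
CPM scaled by TMM (y axis, linear, a different range in each panel) of the 8 genes in the 3 wtIDH1 (blue) and 3 mIDH1 (orange) libraries, with replicate numbers beside the points and the mean and SD of each group as dash and bar. Vegfa, Flt1 and Kdr are lower and Nrp1 and Nrp2 higher in all 3 mIDH1 libraries, while Vegfb, Vegfc and Pgf overlap.

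The promoters of the 5 genes whose groups did not overlap are shown so that the start-proximal sequence of the lower genes can be set beside that of the higher ones. Sequences are from RefSeq on GRCm38.p6, the patch release of the mm10 assembly, and all 8 genes matched by symbol. Each is printed 5′ to 3′ on the strand of the gene and stops before the first annotated exon base. For genes with several start sites the most upstream RefSeq window was used. The Vegfa stretch is chr17:46032378-46032627 (minus strand), Flt1 chr5:147726012-147726261 (minus), Kdr chr5:75978459-75978705 (minus), Nrp1 chr8:128358823-128359072 (plus) and Nrp2 chr1:62703067-62703284 (plus). The Nrp1 stretch lies downstream of the gene start in the GENCODE annotation, at 128358604, but outside every annotated exon. Capitals mark the GC box core GGGCGG and the hypoxia response cores GCGTG and ACGTG, each on either strand. Neighbouring matches can abut or overlap.
Vegfa: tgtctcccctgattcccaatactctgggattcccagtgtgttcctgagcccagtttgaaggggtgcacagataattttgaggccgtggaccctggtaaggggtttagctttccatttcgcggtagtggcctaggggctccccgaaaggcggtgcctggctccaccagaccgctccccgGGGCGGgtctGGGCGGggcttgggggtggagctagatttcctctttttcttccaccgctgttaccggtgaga
Flt1: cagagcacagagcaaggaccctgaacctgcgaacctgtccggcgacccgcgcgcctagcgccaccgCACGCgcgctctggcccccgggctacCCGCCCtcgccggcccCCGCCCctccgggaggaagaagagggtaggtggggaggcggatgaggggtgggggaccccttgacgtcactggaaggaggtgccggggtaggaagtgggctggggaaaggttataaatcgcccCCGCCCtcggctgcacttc
Kdr: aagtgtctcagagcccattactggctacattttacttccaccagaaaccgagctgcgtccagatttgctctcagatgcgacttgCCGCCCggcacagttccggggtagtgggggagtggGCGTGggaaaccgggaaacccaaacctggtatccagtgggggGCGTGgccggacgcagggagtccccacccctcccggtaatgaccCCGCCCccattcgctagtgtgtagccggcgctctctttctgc
Nrp1: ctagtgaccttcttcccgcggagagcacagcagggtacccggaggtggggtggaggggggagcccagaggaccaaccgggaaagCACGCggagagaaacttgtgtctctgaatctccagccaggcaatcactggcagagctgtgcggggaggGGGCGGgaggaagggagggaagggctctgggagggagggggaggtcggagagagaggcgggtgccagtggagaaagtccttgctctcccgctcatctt
Nrp2: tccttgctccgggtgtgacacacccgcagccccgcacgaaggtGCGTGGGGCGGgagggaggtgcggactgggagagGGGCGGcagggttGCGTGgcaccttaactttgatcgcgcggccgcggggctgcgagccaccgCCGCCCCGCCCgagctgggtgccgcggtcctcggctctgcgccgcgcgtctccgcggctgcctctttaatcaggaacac
Matches were counted on both strands in the full windows of 300 bases, from 250 before to 50 after the start. GGGCGG was found in 35.7% of all 32851 RefSeq promoter windows. It occurred 2 times in the Vegfa window, 3 times in Flt1, 2 times in Kdr, 1 time in Nrp1 and 5 times in Nrp2, the last of these in Nrp2 beyond the printed stretch. GCGTG, present in 32.4% of all windows, was not in the Vegfa window. It occurred 1 time in Flt1, 2 times in Kdr, 1 time in Nrp1 and 2 times in Nrp2. The other hypoxia response core, ACGTG, is in 19.6% of all windows, and the AP-1 site TGANTCA in 7.81%. Neither was in any of the 8 windows. These are matches of letters in a short window, and binding was not measured. Sequence outside the windows was not searched, so a missing match does not show that a gene lacks such sites.

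Among the ligands, Vegfa carried nearly all of the signal in wtIDH1 libraries. Vegfa (ENSMUSG00000023951.17, chromosome 17, 46016993 to 46032369, minus strand) encodes the main angiogenic ligand. Its levels were 892, 1213 and 1027 CPM in wtIDH1 replicates 1 to 3 and 76.3, 165 and 218 CPM in the mIDH1 replicates. The lowest wtIDH1 library was far above the highest mIDH1 library, and the spread was wider within mIDH1. The means were 1044 ± 161 and 153 ± 71.4 CPM (SD, n = 3 each). The fitted log2 fold change was -2.77 ± 0.31 (SE), the 80th most negative of the 12950 genes tested. It lay between -3.11 and -2.45 when any 1 library was left out. A count per gene adds up all splice forms, so the VEGF-A isoforms, which differ in how they bind neuropilins and heparan sulfate, cannot be told apart.

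Vegfb (chromosome 19, 6982473 to 6987651, minus strand) encodes a VEGFR1 ligand known for roles in lipid handling and cell survival. Its values were 21.1, 9.36 and 3.98 CPM in the wtIDH1 libraries, against 14.1, 5.21 and 17.3 CPM in those of mIDH1. The groups covered nearly the same range, and the log2 fold change was 0.09 ± 0.59 (SE). Leaving out 1 library moved it between -0.32 and 0.86.

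Pgf (chromosome 12, 85166635 to 85177790, minus strand) encodes placental growth factor, another VEGFR1 ligand. The wtIDH1 libraries gave 0.0924, 9.74 and 4.43 CPM and the mIDH1 libraries 18.3, 9.31 and 2.47 CPM. The first of these values stands for 2 counts and lies under the floor of 0.139 CPM in that library. The highest library was mIDH1 replicate 1, but mIDH1 replicate 3 was below 2 of the wtIDH1 libraries. The log2 fold change was 1.07 ± 1.01 (SE) and moved between 0.30 and 2.14 with 1 library left out, and its error was nearly as large as the change.

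Vegfc (chromosome 8, 54077606 to 54187096, plus strand) encodes a ligand of lymphatic vessels. It had 25, 0 and 0 counts in wtIDH1 and 0, 24 and 8 counts in mIDH1, or at most 1.15 CPM, and did not pass the filter on low counts. Figf, the older symbol of the related ligand gene Vegfd, had 0 counts in all 6 libraries, which allows up to 0.0861 to 0.151 CPM per library.

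Per kilobase of merged exons, Vegfa made up 93.8, 96.9 and 98.4% of the summed level of the 4 ligand genes in wtIDH1 and 54.2, 85.0 and 81.1% in mIDH1. Vegfa was thus the leading ligand transcript in every library, by a smaller margin in mIDH1. The means were 96.4 ± 2.30% and 73.4 ± 16.8% (SD, n = 3 each). Vegfb itself differed by less than its spread, while its share of the sum was 2.98 ± 2.60% in wtIDH1 and 17.0 ± 9.75% in mIDH1. For Pgf the share was 0.597 ± 0.568% and 9.20 ± 9.08%, and in mIDH1 replicate 1 it reached 19.1%.

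**Figure D2:**
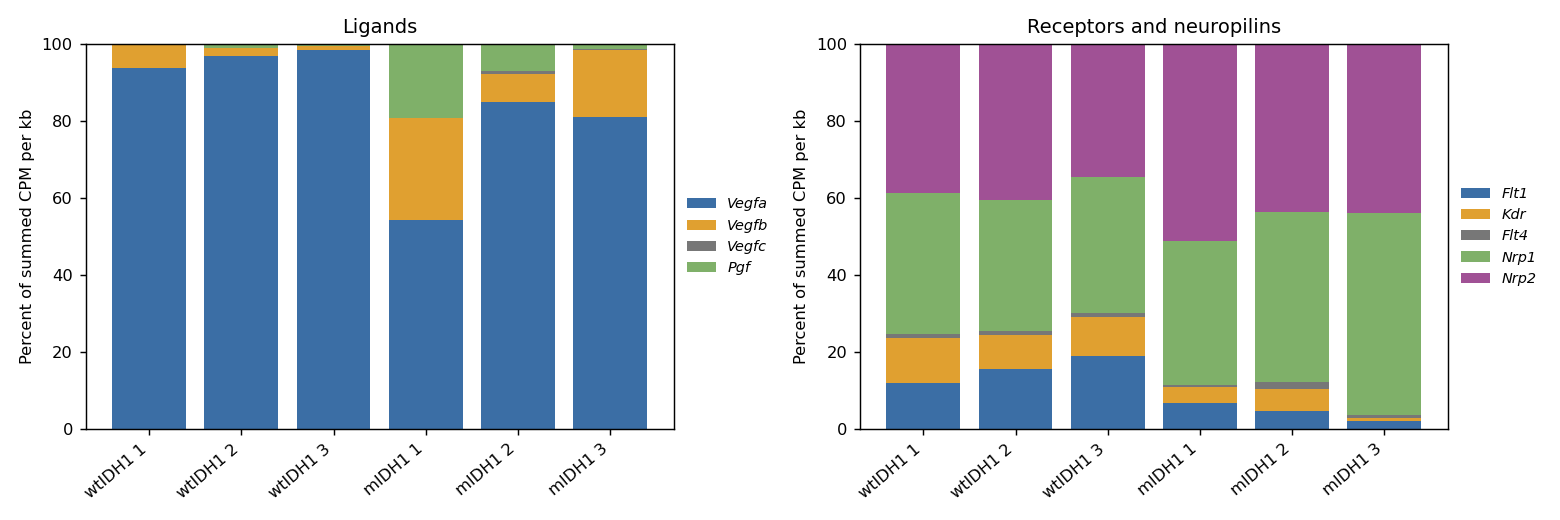
Percent of the summed CPM per kilobase of merged exons (y axis) in each library (x axis, group and replicate), for the 4 ligand genes (left) and for the receptor genes Flt1, Kdr and Flt4 with the neuropilin genes (right). Vegfa fills 93.8% or more of the ligand bar in wtIDH1 and 54.2 to 85.0% in mIDH1, and Flt1 and Kdr fill less of the receptor bar in mIDH1.

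Both receptor kinase genes were lower in mIDH1, with mIDH1 replicate 3 lowest for each. Flt1 (chromosome 5, 147561604 to 147726011, minus strand) had 45.9, 64.3 and 75.8 CPM in the wtIDH1 replicates and 42.9, 19.9 and 12.3 CPM in the mIDH1 replicates. The groups did not overlap, but wtIDH1 replicate 1 and mIDH1 replicate 1 lay close together. The log2 fold change was -1.30 ± 0.38 (SE), between -1.94 and -0.98 with 1 library left out. Flt1 gives rise to a membrane receptor and to a soluble decoy form, and the counts do not separate them.

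Kdr (chromosome 5, 75932827 to 75978458, minus strand), the gene of the main signalling receptor of VEGF-A, was at 30.8, 24.3 and 27.4 CPM in wtIDH1. In mIDH1 it was at 17.5, 17.3 and 4.23 CPM. The first pair of mIDH1 libraries were nearly alike and mIDH1 replicate 3 stood well below them. The log2 fold change was -1.07 ± 0.44 (SE) with all libraries and -0.66 without mIDH1 replicate 3. Per kilobase, the ratio of Flt1 to Kdr was 1.54 ± 0.472 in wtIDH1 and 1.45 ± 0.611 in mIDH1, a difference smaller than either spread.

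Kdr is known above all from endothelial cells, so their markers were measured beside it. Of 8 defining endothelial markers, Emcn, Robo4 and Sox18 were at 0 in all 6 libraries. Cldn5, Tie1 and Tek were at most 0.428 CPM and Egfl7 at most 2.88 CPM. Cdh5 was at 6.28, 0.152 and 2.22 CPM in wtIDH1 and 3.41, 0.0931 and 0.855 CPM in mIDH1. The summed level of the 8 was 6.60, 0.682 and 3.78 CPM in wtIDH1 and 4.53, 3.16 and 1.33 CPM in mIDH1. Within each group Kdr had the same order of libraries as this sum, both lowest in wtIDH1 replicate 2 and in mIDH1 replicate 3. Flt1 had that order in mIDH1 but not in wtIDH1. The sizes differed, with the sum at 6.60 and 0.682 CPM in wtIDH1 replicates 1 and 2 and Kdr at 30.8 and 24.3 CPM. In mIDH1 replicates 1 and 2 Kdr was nearly alike, at 17.5 and 17.3 CPM. The part of endothelial cells in the Kdr and Flt1 values was not tested. In the full list of endothelial, lymphatic and mural genes, none of 11 tested genes passed edgeR's test at an adjusted p of 0.05, with 1 at an unadjusted p under 0.05, and the median log2 fold change was 0.03 against 0.06 over all genes tested. That median was not stable. It was 0.73 with no filter, 0.76 by DESeq2, 0.47 by limma voom and 0.85 without wtIDH1 replicate 2, but -0.09 without mIDH1 replicate 2, and the number of genes tested changed between these. Pdpn, also known from macrophages, passed as higher by DESeq2, with no filter and without mIDH1 replicate 2. It was named after its values were seen.

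Monocyte markers also differed between the groups, in the direction of Vegfa, Flt1 and Kdr for the most part. Of 9 tested, 4 passed edgeR's test as lower in mIDH1 and 1 as higher, against 5.39% and 2.78% of all genes tested. The median log2 fold change was -0.98 against 0.06 over all genes tested. It was -0.55 without mIDH1 replicate 3 and -1.38 without mIDH1 replicate 2. The lower genes were Ly6c2 (-1.76), Plac8 (-1.94), Klf4 (-1.63) and Nr4a1 (-1.47), and the higher gene was F13a1 (1.78), at 292 to 393 CPM in wtIDH1 libraries against 841 to 1969 CPM. With F13a1 included, the summed level of the list was 2686 to 3740 CPM in wtIDH1 and 2638 to 2824 CPM in mIDH1. Plac8 and Nr4a1 did not pass without wtIDH1 replicate 2, and Plac8 did not without wtIDH1 replicate 3. Without mIDH1 replicate 3 the list held 3 higher genes. These 5 genes were named after their values were seen, and the part of the monocyte markers in the values of Vegfa, Flt1 and Kdr was not tested.

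The neuropilin genes were higher in every mIDH1 library. Nrp1 (chromosome 8, 128358604 to 128503363, plus strand) was at 104, 102 and 103 CPM in wtIDH1, the narrowest spread of the 8 genes at 0.949% of the mean. In mIDH1 it was at 173, 142 and 246 CPM, with replicate 3 highest. The log2 fold change was 0.86 ± 0.20 (SE), between 0.61 and 1.02 with 1 library left out. Neuropilin-1 is a co-receptor for VEGF-A and semaphorin 3A and is known on macrophages, microglia and regulatory T cells. Of 8 microglia markers tested, none passed edgeR's test. Their log2 fold change was positive for 3 and negative for 5, with a median of -0.41. Foxp3, a regulatory T cell gene named after its values were seen, had a log2 fold change of -0.56 (edgeR adjusted p = 0.541). The part of these markers in the Nrp1 values was not tested.

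Nrp2 (chromosome 1, 62703285 to 62818695, plus strand), whose product binds VEGF-C and semaphorin 3F, was at 132, 148 and 122 CPM in wtIDH1. It was at 288, 170 and 249 CPM in mIDH1, with replicate 1 highest and replicate 2 nearest to wtIDH1. The log2 fold change was 0.82 ± 0.20 (SE), between 0.65 and 1.01 with 1 library left out. Macrophage markers differed in part. Of 13 tested, 7 passed edgeR's test as higher in mIDH1 and none as lower, against 2.78% and 5.39% of all genes tested. Their median log2 fold change was 0.93 against 0.06 over all genes tested. It was 0.56 without mIDH1 replicate 3 and 1.09 without mIDH1 replicate 1. Mrc1, the mannose receptor gene, went from 145 ± 56.6 to 843 ± 99.5 CPM (SD, n = 3 each). Without wtIDH1 replicate 1, 2 or 3 the macrophage genes that passed as higher were 4, 2 and 3. Arg1 had the opposite sign, at 988, 1226 and 1674 CPM in wtIDH1 libraries and 236, 324 and 1148 CPM in mIDH1 libraries (log2 fold change -1.19, edgeR adjusted p = 0.136). It passed as lower with no filter, by limma voom, with the replicate block and without mIDH1 replicate 3. Mrc1 and Arg1 were named after their values were seen. The part of these markers in the neuropilin values was not tested.

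Of the exons of the 8 genes, those of Nrp1 shared 80 bases with the microRNA gene Mir1903, which had 0 counts in all libraries. No other annotated exon overlapped them in GENCODE M21.

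**Figure D3:**
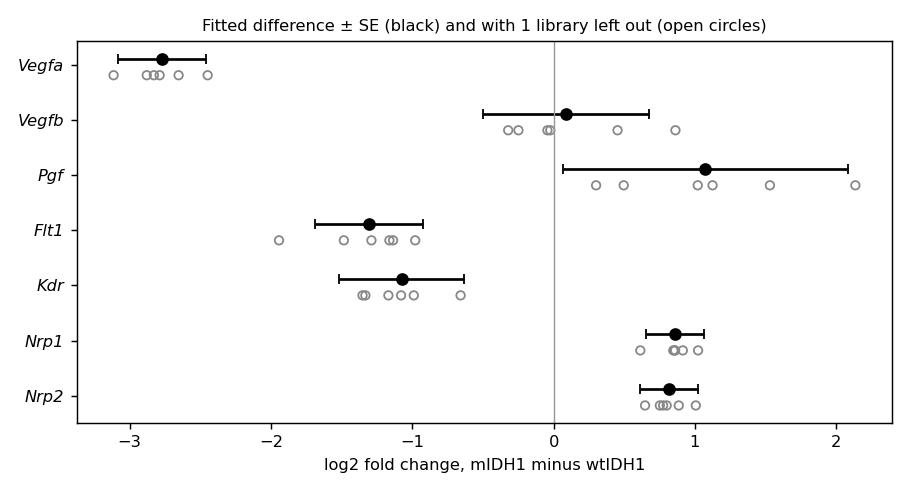
Fitted log2 fold change of mIDH1 minus wtIDH1 (x axis) for the 7 members tested, as black points with SE, and the same after leaving out each library in turn as open circles. Vegfa, Flt1 and Kdr stay below 0 and Nrp1 and Nrp2 above 0 in all 6 of these fits, while Vegfb falls on both sides of 0. Pgf also stays above 0, from 0.30 to 2.14, though its SE is nearly as large as its change.

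Levels of different genes can be set side by side only per length. On the scale of CPM per kilobase of merged exons, the wtIDH1 order was Vegfa (244 ± 37.6), Nrp2 (11.3 ± 1.08), Nrp1 (10.5 ± 0.0999), Vegfb (7.15 ± 5.46), Flt1 (4.59 ± 1.12), Kdr (3.05 ± 0.358), Pgf (1.64 ± 1.66) and Vegfc (0.157 ± 0.272). In mIDH1 it was Vegfa (35.7 ± 16.7), Nrp2 (19.9 ± 5.10), Nrp1 (19.1 ± 5.43), Vegfb (7.61 ± 3.91), Pgf (3.45 ± 2.73), Flt1 (1.85 ± 1.18), Kdr (1.44 ± 0.843) and Vegfc (0.153 ± 0.152; SD, n = 3 each). In wtIDH1 the ranges of neighbours in this order overlapped, except those of Vegfa and Nrp2. In mIDH1 they overlapped except between Nrp1 and Vegfb and between Kdr and Vegfc, and in replicate 1 Vegfa (17.8) was below Nrp2 (24.3). Dividing by the longest transcript instead places Nrp1 above Nrp2, at 45.5 against 32.0% of the summed receptor level in wtIDH1, so their order rests on the choice of length.

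The ratio of ligand to receptor transcripts did not overlap between the groups. This follows from the member values above, as does the separation of the neuropilin ratio below, so neither is a separate result. Per kilobase, Vegfa over the sum of Flt1, Kdr, Nrp1 and Nrp2 was 7.29, 9.33 and 8.12 in wtIDH1 and 0.378, 1.19 and 1.07 in mIDH1. The sum of both neuropilins over the sum of Flt1 and Kdr was 3.19, 3.07 and 2.41 in wtIDH1 and 8.22, 8.49 and 33.5 in mIDH1. In mIDH1 replicate 3, where that last ratio was by far the highest, Flt1 and Kdr were at their lowest and Nrp1 at its highest. Nrp1 over Nrp2 was 0.938 ± 0.0939 and 0.978 ± 0.236, a difference within the spread.

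**Figure D4:**
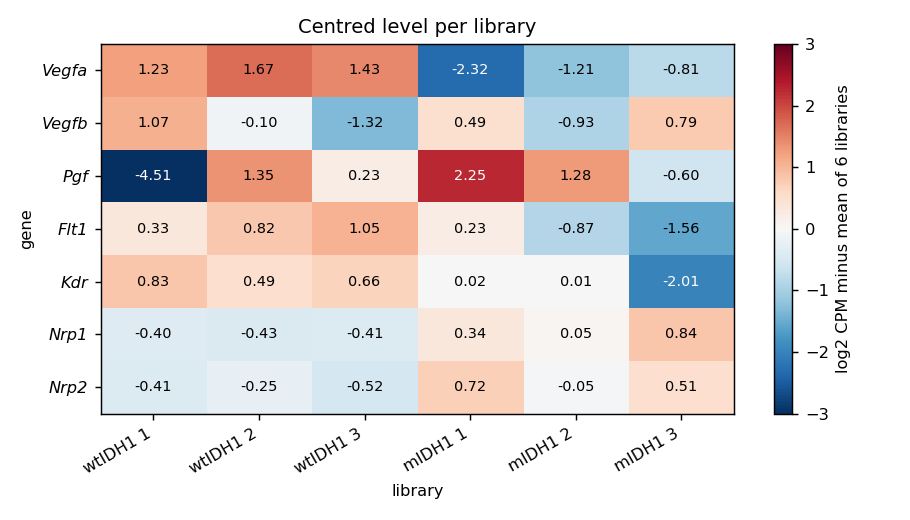
Log2 CPM of each tested member (rows) in each library (columns), minus the mean of that gene over the 6 libraries, printed in each cell. The colour scale ends at -3 and 3, so the -4.51 of Pgf in wtIDH1 replicate 1 is drawn at its end. Within mIDH1 the libraries differ by gene, with Vegfa lowest in replicate 1 (-2.32) and Kdr lowest in replicate 3 (-2.01).

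The mIDH1 libraries did not share 1 order across the members, and the genes with the most similar profiles differed accordingly. Likeness was measured as the root mean square difference of centred log2 CPM over the 6 libraries, against 8980 named genes with a mean of at least 5 CPM. These profiles include the difference between groups that was already known for the members. Shared regulation or a shared cell source was not tested. Nearest to Vegfa were Cntrob (0.33), which encodes a centriole protein, Erdr1 (0.36) and Ccdc76 (0.39). Erdr1 ran from 674 to 899 CPM in wtIDH1 and from 108 to 168 CPM in mIDH1. Nearest to Kdr was Ccr2 (0.15), the chemokine receptor gene of inflammatory monocytes, followed by Nlrp1c-ps (0.22) and the lectin gene Clec10a (0.23). Like Kdr, Ccr2 had its lowest value (61.0 CPM) in mIDH1 replicate 3. Its values were 247 and 301 CPM in mIDH1 replicates 1 and 2, and 375 to 438 CPM among wtIDH1 libraries. For Flt1 the nearest were Parp14 (0.07), an ADP-ribosyltransferase gene induced by interferon, Irg1 (0.13), which encodes the itaconate-forming enzyme, and Slfn9 (0.14). Library by library, Parp14 had 628, 860 and 983 CPM among wtIDH1 and 558, 296 and 178 CPM in mIDH1. Nrp1 was nearest to Qdpr (0.08), Fam96a (0.08) and the iron regulator gene Hfe (0.09), and Nrp2 to Tsr2 (0.11), Il18bp (0.11) and Uqcr11 (0.12). Vegfb was nearest to Nudt18 (0.25), Hist1h2af (0.33) and Tceb1 (0.36). No gene came near Pgf, where the smallest differences were 0.95 for Ednrb, 1.04 for Gja1 and 1.07 for Tfap4. The Pgf profile includes wtIDH1 replicate 1, where its 2 counts lay under the floor, so these differences rest in part on that value.

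The nearest tested coding genes on either side of the 7 tested members varied in direction and size. They were chosen by position alone after the data were seen, and lay 259 to 746317 bases away. Flt1 lies between Pan3, with a log2 fold change of -0.16, and Pomp (0.01), and Kdr between Kit (0.14) and Srd5a3 (0.66). Vegfa has Tmem63b (-1.50), 330087 bases away, and Rsph9 (0.51 ± 1.51, SE) as neighbours. Vegfb lies between Fkbp2 (-0.47) and Dnajc4 (-0.96), and Pgf between Dlst (-0.37) and Eif2b2 (-0.17). Nearest to Nrp1 by position were Pard3 (4.50), 746317 bases away, and the integrin gene Itgb1 (0.12). Pard3 was at 0.288 ± 0.390 CPM in wtIDH1 against 6.61 ± 3.95 CPM in mIDH1. Beside Nrp2 lie Pard3b (2.69), a relative of Pard3, at 0.891 ± 0.227 and 5.78 ± 3.11 CPM, and Ino80d (0.26).

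Other genes of the VEGF and neuropilin system did not pass in either direction. Of 18 tested genes, among them Flt4, plexins and some of the PDGF ligands and class 3 semaphorins, none passed edgeR's test at an adjusted p of 0.05. At an unadjusted p under 0.05 were 6, 4 higher and 2 lower. Nothing is read from these 6, because the share of all genes under that value is not given. The median log2 fold change was 0.01 against 0.06 over all genes, but 0.35 without wtIDH1 replicate 1 and -0.11 at a minimum count of 30. Flt4, the receptor gene for VEGF-C, had 2.59 ± 0.528 CPM in wtIDH1 against 3.52 ± 1.26 CPM in mIDH1 (adjusted p = 0.805). Plxnd1, a plexin gene of vessels and macrophages, was at 165 ± 40.3 and 224 ± 92.2 CPM (adjusted p = 0.394). DESeq2 called Pdgfra and Plxna2 higher. Without mIDH1 replicate 3 edgeR called Plxna1 and Plxna2 higher and Pdgfa lower, and without mIDH1 replicate 1 it called Sema4a lower. These 5 genes were named after their values were seen.

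Most genes that carry VEGF receptor signals inside the cell did not pass. Of 43 tested genes 4 fell in mIDH1 and none rose by edgeR, against 5.39% and 2.78% of all genes tested. Unadjusted p-values under 0.05 were found for 15 of the 43, 6 higher and 9 lower. The share of all genes under that value is not given, so nothing is read from this count. The median log2 fold change was -0.13, but -0.06 without mIDH1 replicate 2, -0.09 without wtIDH1 replicate 2 or with no filter, and -0.05 with library totals alone, which move the median of all genes from 0.06 to 0.13. Among the lower genes, the kinase gene Src was at 115 ± 5.77 CPM in the wtIDH1 libraries against 55.9 ± 15.3 CPM in those of mIDH1, a log2 fold change of -1.04 ± 0.22 (SE, edgeR adjusted p = 0.012). The kinase gene Fyn (-0.90, edgeR adjusted p = 0.046) and Pik3cd (-0.75, edgeR adjusted p = 0.021), the PI3-kinase subunit gene of leukocytes, fell as well. Without wtIDH1 replicate 2 only 1 of the list fell, and without wtIDH1 replicate 3 none did. Fyn was also lost without wtIDH1 replicate 1 or mIDH1 replicate 2 or 3 (edgeR adjusted p = 0.0784, 0.104 and 0.0671). Higher genes numbered 3 with library totals alone, 2 with upper-quartile factors or DESeq2, and 1 with no filter or without mIDH1 replicate 3.

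Vegfa is a hypoxia target, and the next list held the HIF factors, their regulators and other hypoxia targets. Of 44 tested genes 7 fell and 2 rose, with 35 not past the threshold. Of all genes tested 5.39% were lower and 2.78% higher, so lower calls outnumbered higher ones there too. The median log2 fold change of the list was -0.19. It was -0.05 without wtIDH1 replicate 2, -0.06 and -0.09 without mIDH1 replicate 1 and 2, -0.31 without mIDH1 replicate 3 and -0.10 with library totals alone. Hk2, the inducible hexokinase gene, went from 420 ± 43.5 down to 211 ± 8.71 CPM, a log2 fold change of -0.99 ± 0.16 (SE, edgeR adjusted p = 0.0032). The glycolytic enzyme genes Tpi1 (-0.90) and Pfkl (-0.92) and the lactate exporter gene Slc16a3 (-1.07) fell as well. Hif1a itself went from 1393 ± 150 down to 929 ± 112 CPM, a log2 fold change of -0.59 ± 0.17 (SE, edgeR adjusted p = 0.049), and it did not pass without any 1 of the 6 libraries (adjusted p up to 0.194). The other lower genes were Slc2a1 and P4ha1, and the higher ones Ndrg1 and Vldlr, named after their values were seen. Vldlr was near the detection limit in wtIDH1, at 0, 0.0758 and 0.202 CPM. Among the 15 alternative fits, Slc2a1 passed in 7, Ndrg1 in 9, P4ha1 in 10 and Vldlr in 12. Epas1, the gene of HIF-2 alpha, was at 9.39 ± 3.87 and 10.9 ± 6.81 CPM (adjusted p = 0.873). Arnt, the partner of both factors, was at 127 ± 19.1 and 122 ± 5.23 CPM (adjusted p = 0.883), and Vhl, which marks them for degradation, at 36.0 ± 9.33 and 34.0 ± 15.9 CPM (adjusted p = 0.918). Among the targets that did not pass were, chosen after their values were seen, Ldha (354 ± 18.9 and 378 ± 55.8 CPM) and Aldoa (823 ± 59.8 and 808 ± 54.5 CPM). Without wtIDH1 replicate 2 the list held 2 lower and 0 higher genes, without wtIDH1 replicate 3 it held 4 and 1, and without mIDH1 replicate 2 it held 4 and 0. Without wtIDH1 replicate 1 it held 6 lower genes and 1 higher gene. Pfkl and Slc16a3 were lost without wtIDH1 replicate 2 (edgeR adjusted p = 0.0529 and 0.0575).

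Of 29 tested genes for other angiogenic and anti-angiogenic factors 4 rose and 1 fell, against 2.78% and 5.39% of all genes tested. The median log2 fold change was 0.33. It was 0.15 without wtIDH1 replicate 3, 0.20 without mIDH1 replicate 1 and 0.58 without mIDH1 replicate 3. Hgf, the gene of hepatocyte growth factor, went from 14.0 ± 3.17 up to 39.8 ± 12.1 CPM, a log2 fold change of 1.51 ± 0.31 (SE, edgeR adjusted p = 0.012). Timp3, a metalloproteinase inhibitor gene whose product also binds VEGFR2, rose from 1.48, 0.796 and 0.353 CPM to 19.9, 11.0 and 8.03 CPM (log2 fold change 3.88, edgeR adjusted p = 0.0050). Fgfr1, a fibroblast growth factor receptor gene, rose from 2.27 ± 1.08 to 11.0 ± 4.56 CPM (2.27, adjusted p = 0.038), but did not pass without any 1 of the 6 libraries. The fourth was Wnt7b, with 5, 1 and 0 counts in the wtIDH1 libraries, named after its values were seen. Adamts1, a protease gene whose product can bind VEGF-A, fell from 17.5 ± 8.96 to 4.15 ± 0.357 CPM (-2.08, adjusted p = 0.017). Adamts1 was lost without wtIDH1 replicate 1 or 3, and Hgf without wtIDH1 replicate 3 (edgeR adjusted p = 0.117, 0.0526 and 0.0648). Without wtIDH1 replicate 2 or 3 the list held 2 and 1 higher genes, and without mIDH1 replicate 1 it held 3 lower genes. Thbs1, an anti-angiogenic factor gene named after its values were seen, was at 6364 ± 1561 and 4123 ± 1548 CPM (adjusted p = 0.168).

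**Figure D5:**
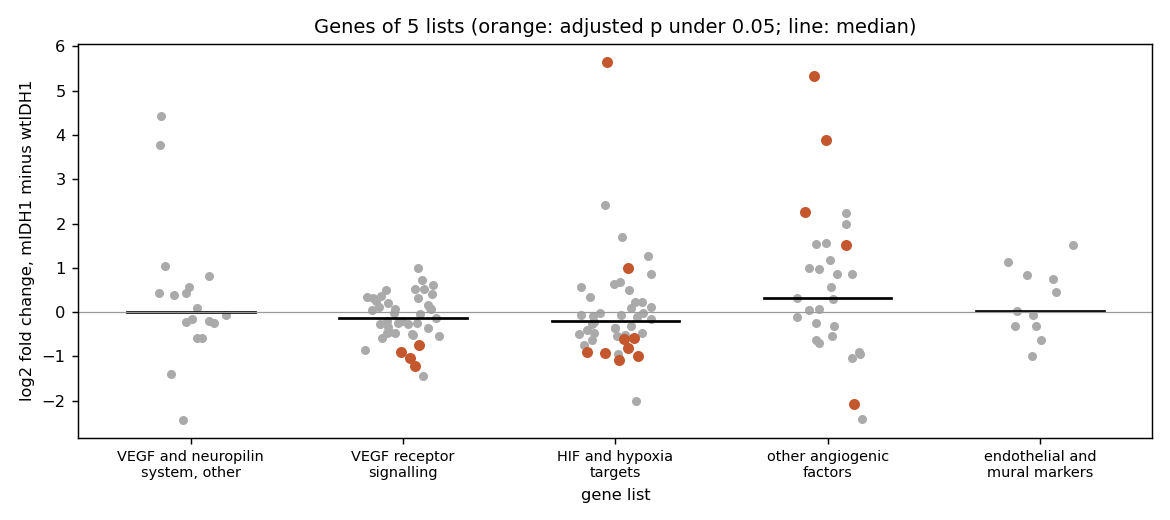
Log2 fold change of mIDH1 minus wtIDH1 (y axis) for the tested genes of 5 lists (x axis, points spread sideways for legibility), with genes past an adjusted p of 0.05 in orange and the list median as a line. The medians lie between -0.19 for HIF genes and hypoxia targets and 0.33 for other angiogenic factors, and no gene of the first or last list passes.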

How the data were processed

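The deposited values are estimated counts, 1 column per library, that the authors had not scaled to library size. The submitters' processing notes name HTSeq, Cuffdiff 2.1.1, Cufflinks, Bowtie2 2.2.1, TopHat2 2.0.13, FastQC and build mm10, without their order or settings. Per the labels' protocols, poly(A) RNA was made into TruSeq v2 libraries. Of the values in a library, 1.31 to 1.61% were not whole (tolerance 1e-09). Counts were rounded, filtered with filterByExpr (minimum count 10, total 15), scaled by TMM and compared with edgeR 4.0.16 (glmQLFit and glmQLFTest with a term for genotype, leaving 4 residual degrees of freedom), run in R 4.3.3. P-values are two-sided and Benjamini-Hochberg adjusted over the 12950 tested genes, and the threshold was 0.05. Of these genes 1058 passed, 360 higher and 698 lower in mIDH1. DESeq2 1.42.0 and limma 3.58.1 (voom) were alternatives, beside other scalings, filters, a replicate block and leaving out each library. Log2 CPM used a prior count of 2. Gene positions and exon lengths are from GENCODE M21.

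No pair of replicates was close enough to be a repeat of the same library (chi-square of their counts over its degrees of freedom, 50.3 to 144), so each counted as 1 sample. The members and gene lists were chosen with earlier results of these data known. Named are all members, up to 4 genes per list with the smallest p among those past the threshold, 7 genes fixed by role, and the 3 genes nearest in profile to each member with a mean of at least 5 CPM. A gene that this rule names is not reported here. On counts simulated for mIDH1 against wtIDH1 (12619 genes tested), the test recovered 29.3% of 99 genes with a log2 change of 1. It recovered 68.4% of 98 with a change of 2, with 4 false calls. The simulation changed 200 genes, fewer than the 1058 that passed in the data, so recovery in the data may differ. The sources used here do not give how reads shared by several genes were counted, nor the annotation, and the library kit does not mark strand.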

Additional observations from a re-analysis of the deposited data

How the results depend on the processing

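The log2 fold changes of the 7 tested members moved by less than the spread between replicates in all 15 alternatives, which describes values already known when the genes were chosen. The number of members past the threshold was 1 with the replicate block, 4 (with Flt1) with no filter, a minimum count of 30, DESeq2 or limma voom, and 1 to 3 with 1 library left out. The share of ligand level held by Vegfa moved by less than 1 SD with the longest transcript or no division by length. Over all genes 1058 passed, against 1698 by DESeq2 (715 higher), 585 with the replicate block (156 higher, 429 lower) and 334 (without wtIDH1 replicate 2) to 1033 with 1 library left out (78 to 365 higher, 256 to 707 lower). Lower genes were 66.0% of calls, but 55.1% with library totals alone, 56.9% with upper-quartile factors, 57.9% by DESeq2, and 73.0% by limma voom.

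With the replicate block 4 hypoxia genes fell and 1 rose, and 2 angiogenic factors rose and 0 fell. The replicate numbers did not pair the libraries (correlation of same-numbered deviations -0.03, 0.03 and -0.05), and not every library correlated best with its own number. DESeq2 gave 2 higher genes in the VEGF and neuropilin system, 2 in receptor signalling, 9 higher and 4 lower angiogenic factors and 1 higher endothelial or mural gene. With no filter these were 1 in signalling, 7 and 3 angiogenic factors and 1 endothelial or mural gene. Signalling gave 2 higher genes with upper-quartile factors and 3 with library totals alone, and limma voom gave 1 higher hypoxia gene and 3 lower angiogenic factors. With 1 library left out, the counts ranged from 0 to 2 higher and 0 to 1 lower in the VEGF and neuropilin system, 0 to 1 higher and 0 to 4 lower in signalling, 0 to 2 higher and 2 to 6 lower for hypoxia genes, 1 to 5 higher and 0 to 3 lower for angiogenic factors, and 0 to 1 higher for endothelial and mural genes. The cause was not tested. With 3 libraries a group, changes of a log2 size of 1 were mostly missed in the simulation. It changed fewer genes than passed in the data, so recovery in the data may differ. A gene that did not pass is not shown to be level.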
